A study of Mus musculus with 28 samples.

Results

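The genes described here are 9 epithelial genes that mark bile duct cells and the ductular reaction in liver: the keratins Krt7, Krt19, Krt23, Krt8 and Krt18, the cell surface and junction proteins Epcam, Cldn4 and Cdh1, and the transcription factor Sox9. They were chosen by gene symbol, with earlier results of these data known, and all 9 were found among the 21935 genes of the count table. RNA was measured by poly(A)-selected, stranded RNA sequencing of whole liver from 28 male leptin-deficient mice (strain B6.V-Lepob/JRj, Lep ob/ob), 1 library per mouse. All mice were bought at 5 weeks of age and ate the AMLN diet, which is rich in fat, fructose and cholesterol and produces nonalcoholic steatohepatitis (NASH) in this strain, for 14 weeks before treatment and during it. Treatment was given by mouth once daily for 2 weeks: vehicle in 10 mice, obeticholic acid (OCA) at 30 mg/kg in 9 mice, or INT-787 at 30 mg/kg in 9 mice. OCA and INT-787 are agonists of the farnesoid X receptor (FXR), the nuclear receptor for bile acids. Every group, vehicle included, therefore carried the Lep mutation and the NASH diet, and no lean or chow-fed mice were compared here. Lep, which is mutated in these mice and belongs to fat tissue, had 0 counts in all 28 livers.

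Cholangiocytes, the epithelial cells of the bile ducts, carry the simple-epithelium pair Krt8 and Krt18 together with Krt7 and Krt19, whereas healthy hepatocytes carry Krt8 and Krt18 only. In chronic liver injury, small duct-like structures with these keratins, Epcam and Sox9 spread from the portal tract, a process called the ductular reaction, which Notch, YAP and TWEAK signals are known to feed. Keratins work as pairs of an acidic type I chain (Krt18, Krt19, Krt23) and a basic type II chain (Krt7, Krt8) that form filaments linked to junctions, and aggregates of Krt8 and Krt18 with p62 and heat shock proteins form the Mallory-Denk bodies of steatohepatitis. In whole-liver RNA, fewer cells of a type and less RNA per cell cannot be told apart.

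On the GRCm38 build with GENCODE annotation, Krt7 (ENSMUSG00000023039) lies on chr15:101411043-101430313, Krt8 (ENSMUSG00000049382) on chr15:101996698-102004482 and Krt18 (ENSMUSG00000023043) on chr15:102028180-102032027. Krt23 (ENSMUSG00000006777, chr11:99477974-99493137), Krt19 (ENSMUSG00000020911, chr11:100140810-100148665) and Sox9 (ENSMUSG00000000567, chr11:112782224-112787760) share chromosome 11. Epcam (ENSMUSG00000045394) lies on chr17:87635979-87651129, Cldn4 (ENSMUSG00000047501), whose annotation is a single exon, on chr5:134945119-134946934, and Cdh1 (ENSMUSG00000000303), with 16 exon blocks, on chr8:106603351-106670246. Exons of Krt7 overlap those of Gm671 on the opposite strand by 77 bp, and Gm671 had 0 counts in all mice. Exons of Krt8 overlap those of Gm36026, which the count table does not list, by 101 bp.

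RefSeq promoter windows (GRCm38.p6, 250 bases before the annotated start site to 50 after it) were matched by symbol for 6 of the 9 genes: Krt7, Krt23, Krt8, Krt18, Epcam and Cldn4. Shown here 5′ to 3′ on the strand of the gene are Krt23, the gene with the largest difference between groups, Cldn4, the gene that fell with INT-787, and the neighbours Krt8 and Krt18. The windows are chr11:99493071-99493370 (minus strand) for Krt23, chr5:134946885-134947184 (minus) for Cldn4, chr15:102004293-102004592 (minus) for Krt8 and chr15:102027966-102028265 (plus) for Krt18. Capitals mark matches, on either strand, to the motifs searched: RBPJ (TGGGAA), TEAD (GGAATG), the SOX core (ACAAAG), HNF4 (CAAAGTCCA), the nuclear receptor hexamer (AGGTCA) and the TATA box (TATAAA).
Krt23: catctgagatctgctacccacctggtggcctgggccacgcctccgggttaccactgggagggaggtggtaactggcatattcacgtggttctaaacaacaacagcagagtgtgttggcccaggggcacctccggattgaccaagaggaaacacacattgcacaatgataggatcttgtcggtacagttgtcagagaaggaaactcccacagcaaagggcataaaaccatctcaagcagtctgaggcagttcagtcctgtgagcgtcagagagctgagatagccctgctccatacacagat
Cldn4: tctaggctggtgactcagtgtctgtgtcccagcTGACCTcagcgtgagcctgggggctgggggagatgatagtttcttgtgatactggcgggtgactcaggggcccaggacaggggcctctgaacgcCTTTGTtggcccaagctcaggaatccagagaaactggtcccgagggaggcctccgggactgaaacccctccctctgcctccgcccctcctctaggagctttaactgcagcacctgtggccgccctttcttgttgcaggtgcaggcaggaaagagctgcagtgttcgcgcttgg
Krt8: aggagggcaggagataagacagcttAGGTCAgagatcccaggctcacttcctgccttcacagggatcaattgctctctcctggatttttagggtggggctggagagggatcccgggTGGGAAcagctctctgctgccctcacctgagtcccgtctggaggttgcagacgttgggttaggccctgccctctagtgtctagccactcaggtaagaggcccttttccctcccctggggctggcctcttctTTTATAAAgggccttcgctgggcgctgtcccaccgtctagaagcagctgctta
Krt18: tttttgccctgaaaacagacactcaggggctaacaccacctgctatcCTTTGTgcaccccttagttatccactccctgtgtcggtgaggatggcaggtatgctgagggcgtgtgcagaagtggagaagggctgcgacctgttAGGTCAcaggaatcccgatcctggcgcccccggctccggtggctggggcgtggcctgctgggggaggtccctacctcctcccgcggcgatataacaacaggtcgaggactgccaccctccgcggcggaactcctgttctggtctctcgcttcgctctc
The windows of Krt23 and Epcam held no match to any of the 6 motifs. The nuclear receptor hexamer was present in 4 of the 6 windows (Cldn4, Krt18, Krt7 and Krt8) and in 16.3% of all 32851 RefSeq mouse promoter windows of this length. Counted from the start site at 0, it ran from -225 to -220 in Krt8, from -108 to -103 in Krt18 and, on the opposite strand, from -217 to -212 in Cldn4. The SOX core was present in Cldn4 and Krt18 and in 18.7% of all windows. The RBPJ motif, bound by the transcription factor of Notch signalling, was present in Krt8 from -134 to -129 and in 25.6% of all windows, and the letters of the TATA box were present in Krt8 and in 13.6%. TEAD and HNF4 motifs were found in none of the 6 windows and in 14.7% and 0.475% of all windows. In Krt8 the 2 TATA matches overlap each other on opposite strands and run from -3 to 2 and from -1 to 4, across the annotated start site and not upstream of it.

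Levels are given as counts per 1000000 (CPM), with library totals scaled by edgeR's TMM factors. Totals ranged from 1009593 to 18342272 counts in vehicle mice (median 12901575), from 10990531 to 22421506 in OCA mice (median 16017276) and from 12513715 to 22128216 in INT-787 mice (median 14777433). Vehicle replicate 6 was the shallow library, with the next vehicle library at 9313260. It held 4 counts of Krt23, 4 of Cldn4, 16 of Krt7 and 16 of Krt19, so its values for these genes are the least precise. Vehicle replicate 5 stood apart in the strand of its counts. A ratio was taken over 178 pairs of genes with overlapping exons on opposite strands. It divides the counts on the silent gene by those expected in the overlap from the level of the active gene. The ratio was 0.587, against 0.00857 to 0.0182 in the other 27 mice. OCA replicate 8 stood apart in the genes themselves, as described below.

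The 10 hepatocyte markers, albumin among them, summed to 66768 to 204281 CPM per mouse and 26 other biliary epithelium genes to 1039 to 2737 CPM. Compared per kb of annotated exon over all 28 mice, the order of mean levels was Krt18 (446 ± 77.6 CPM per kb, SD, n = 28), Krt8 (357 ± 62.4), Cdh1 (25.8 ± 8.60), Epcam (11.03 ± 4.23), Krt19 (7.64 ± 3.57), Sox9 (5.83 ± 1.93), Krt23 (5.47 ± 3.34), Cldn4 (1.65 ± 0.975) and Krt7 (1.15 ± 0.517). The pair Krt8 and Krt18, shared by hepatocytes and duct cells, thus stood far above the duct keratins in every mouse. Krt18 was above Krt8 in 27 of 28 mice, Krt19 above Sox9 in 25 and Epcam above Krt19 in 24. The order of Sox9 and Krt23 differed between groups: Sox9 was above Krt23 in 10 of 10 vehicle mice (5.64 ± 0.831 and 2.70 ± 0.544 CPM per kb, SD), in 7 of 9 OCA mice and in 1 of 9 INT-787 mice (5.20 ± 1.26 and 8.47 ± 2.89 CPM per kb). The annotated exons of Krt7 add up to 7049 bases, far more than the 1855 of Krt19, which lowers its value per kb. Of 48 other keratin genes in the table, 29 had 0 counts in all mice, which allows at most 0.00723 CPM over the 414922592 counts (a floor of 3 counts, for counting error only). Only Krt10 and Krt20 among them passed the expression filter, with Krt20, an intestinal keratin, the highest at a mean of 2.17 CPM, and neither was called in any comparison. Of 7 markers of gut and pancreas epithelium, Vil1 (mean 2.51 CPM) and Lgals4 (mean 1.88 CPM), at levels like those of Cldn4, passed the filter and the other 5 did not, with Pnlip at 0 in all mice. Together the 7 were at 1.06 to 15.4 CPM per mouse, and the 5 mesothelium markers together at 4.79 to 16.7 CPM.

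**Figure D1:**
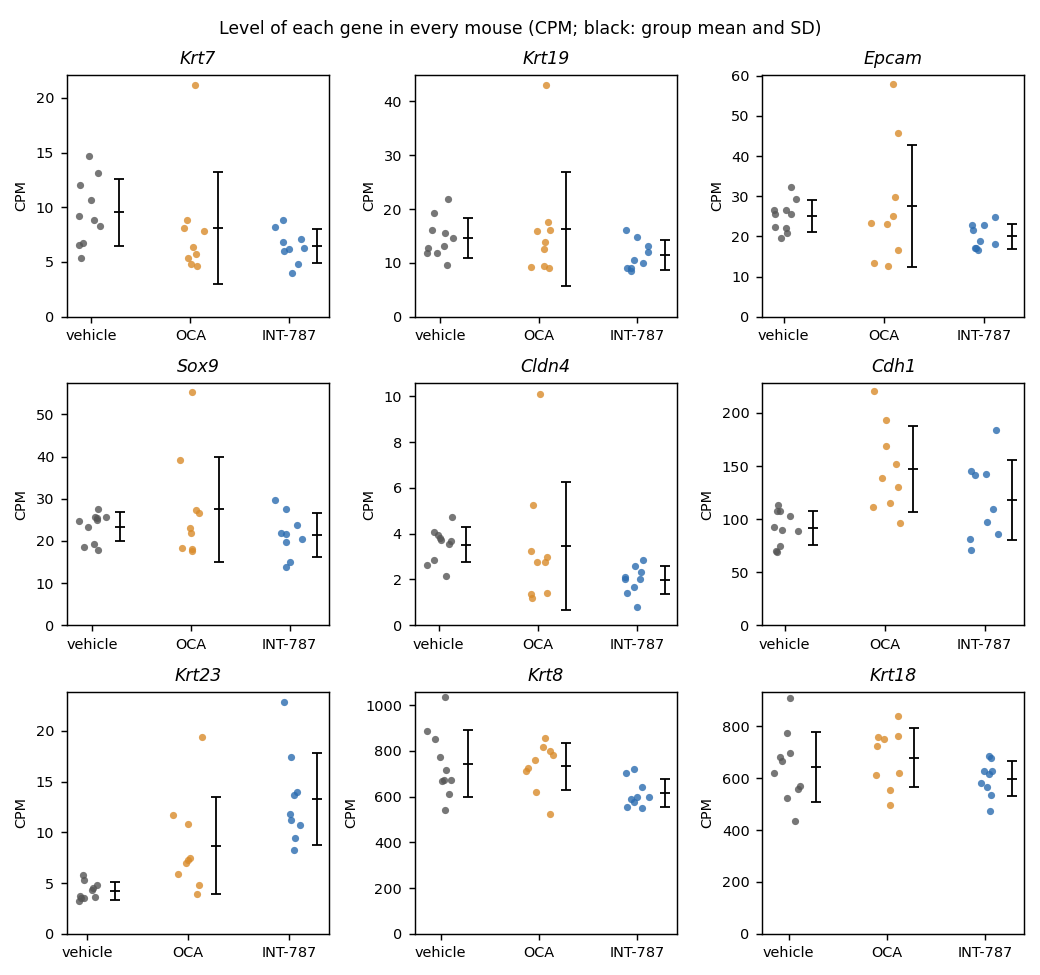
Level of each gene in every mouse. Each panel shows 1 gene with CPM on the y axis from 0 and the 3 groups on the x axis, each coloured point is a mouse (10 vehicle, 9 OCA, 9 INT-787), and black marks give the group mean and SD. All 9 INT-787 mice lie above all vehicle mice for Krt23, and a single OCA mouse, replicate 8, lies far above the rest for Krt7, Krt19 and Cldn4.

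Krt23 showed the largest difference between groups. Krt23 is a type I keratin that is scarce in healthy liver and is known as a stress-inducible keratin of the ductular reaction. In vehicle mice its level ran from 3.25 to 5.75 CPM with a median of 3.99 CPM. In OCA mice it ran from 3.94 to 19.4 CPM with a median of 7.23 CPM. In INT-787 mice it ran from 8.21 to 22.9 CPM with a median of 11.8 CPM. All 9 INT-787 mice were above the highest vehicle mouse, as were 7 of 9 OCA mice, and groups that did not overlap in this direction were found for 1.79% of all genes tested in INT-787 against vehicle. The level rose 3.13-fold with INT-787 (log2 fold change 1.64, SE 0.23, adjusted p = 3.1e-06, edgeR) and 2.05-fold with OCA (log2 fold change 1.04, SE 0.23, adjusted p = 0.0038). Without OCA replicate 8, whose 19.4 CPM was the highest of its group, the OCA value was 0.79 (adjusted p = 0.011).

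Cdh1, which encodes E-cadherin, the epithelial adherens junction protein of duct cells and periportal hepatocytes, rose with OCA. Its level ran from 68.6 to 113 CPM in vehicle mice (median 91.2 CPM), from 96.1 to 221 CPM in OCA mice (median 139 CPM) and from 70.9 to 184 CPM in INT-787 mice (median 109 CPM). All 9 OCA mice were above the vehicle median and 7 were above every vehicle mouse. The log2 fold change was 0.69 with OCA (SE 0.16, adjusted p = 0.0057) and 0.37 with INT-787 (SE 0.16, adjusted p = 0.11), the latter not past the threshold, and INT-787 against OCA gave -0.33 (adjusted p = 0.28). Without OCA replicate 8, the highest of all mice at 221 CPM, the OCA value was 0.60 (adjusted p = 0.015).

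Cldn4, a tight junction claudin of duct epithelium, was lower with INT-787. Vehicle mice ran from 2.17 to 4.73 CPM (median 3.69 CPM), OCA mice from 1.20 to 10.1 CPM (median 2.77 CPM) and INT-787 mice from 0.797 to 2.83 CPM (median 2.03 CPM). Of the 9 INT-787 mice, 6 were below every vehicle mouse and all 9 were below the vehicle median. Against vehicle, INT-787 gave a log2 fold change of -0.84 (SE 0.30, adjusted p = 0.048), and OCA gave -0.01 (SE 0.29, adjusted p = 0.997). The INT-787 call sat at the threshold: it was lost in 18 of the 28 fits that left out 1 mouse, with adjusted p between 0.011 and 0.090 over the 28, and also with sets of neighbouring sample numbers as a factor (-0.85, adjusted p = 0.066), with no expression filter (adjusted p = 0.056) and without vehicle replicates 5 and 6 (adjusted p = 0.076). With OCA, the value without replicate 8 was -0.40 (adjusted p = 0.37).

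In INT-787 against vehicle, 2 of the 9 genes were called, Krt23 higher and Cldn4 lower, or 22.2% of them, beside 19.6% of all 12580 genes tested (10.2% higher and 9.48% lower). The share of genes called in this fit was thus near that of all genes, but it depended on the fit: it was 5 of 9 with DESeq2 (beside 19.6% of all genes) and 4 of 9 with edgeR (beside 20.3%) when only the 2 groups compared were fitted, and 1 of 9 with no filter (beside 14.2%). The log2 fold changes were below 0 for 7 of the 9 genes, with a median of -0.27 over the 9 and of -0.001 over all genes tested, and 5 of the 9 had an unadjusted p below 0.05, as did 32.3% of all genes. In OCA against vehicle, Krt23 and Cdh1 were called, both higher, or 22.2%, beside 6.6% of all genes tested (4.15% higher and 2.45% lower), and the median over the 9 was 0.16, which turned to -0.03 without OCA replicate 8, with the same count of 2 called (beside 7.43% of all genes). In INT-787 against OCA, 0 of the 9 were called, beside 5.38% of all genes tested (2.19% higher and 3.19% lower). DESeq2 also called 0, limma-voom called Krt23, as did edgeR with sets of sample numbers as a factor (adjusted p = 0.038) or without OCA replicate 8 (adjusted p = 0.0089), and 5 of the 9 had an unadjusted p below 0.05 in edgeR, as did 18.9% of all genes. That count was 2 of 9 without OCA replicate 8, beside 14.5% of all genes. The comparisons against vehicle share the same 10 vehicle mice. Of all genes called, 51.7% were higher with INT-787 and 62.9% with OCA, and upper-quartile scaling in place of TMM moved these shares to 37.5% and 52.3% without changing which of the 9 genes had a log2 fold change above or below 0.

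**Figure D2:**
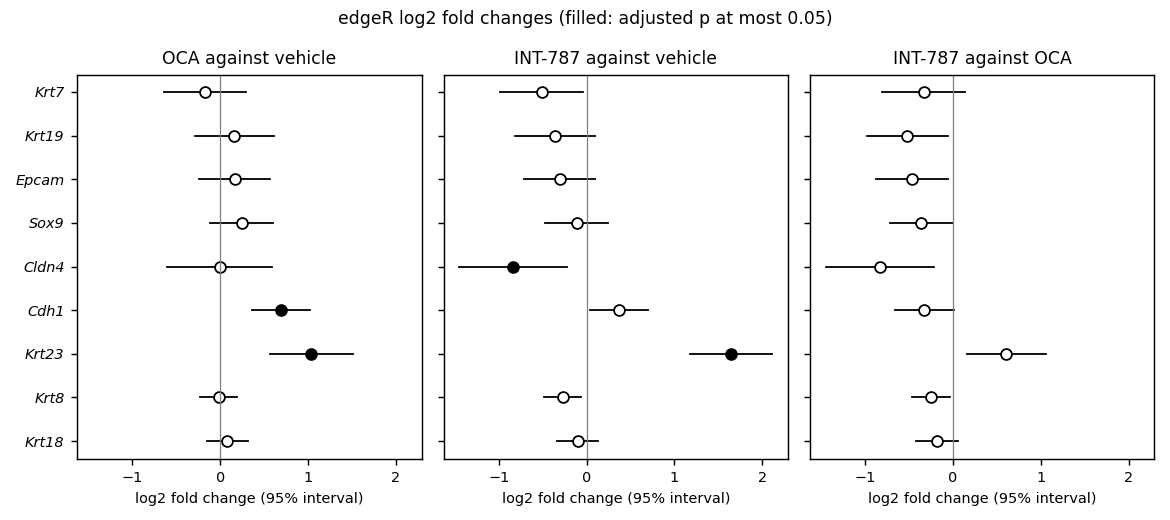
Log2 fold changes of the 9 genes in the 3 comparisons. The x axis gives the log2 fold change from edgeR with its 95% interval as a line, the y axis the genes, and filled points are those with an adjusted p of at most 0.05. Krt23 is called against vehicle for each compound, Cdh1 for OCA and Cldn4 for INT-787, and the panel of INT-787 against OCA has no filled point.

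Krt7, Krt19, Epcam and Sox9 were not called against vehicle by edgeR with the 3 groups in 1 fit. With only the 2 groups compared, Krt7 and Epcam were called in INT-787 against vehicle by edgeR (adjusted p = 0.038 and 0.032) and DESeq2 (adjusted p = 0.024 and 0.023). Krt7, the type II keratin of duct cells, ran from 5.34 to 14.7 CPM in vehicle mice (median 9.00 CPM), from 4.62 to 21.2 CPM in OCA mice (median 6.36 CPM) and from 3.98 to 8.84 CPM in INT-787 mice (median 6.26 CPM). All 9 INT-787 mice and 8 of 9 OCA mice were below the vehicle median, the exception being OCA replicate 8. Its log2 fold change was -0.51 with INT-787 (SE 0.23, adjusted p = 0.12) and -0.18 with OCA (SE 0.23, adjusted p = 0.77). In the fit without OCA replicate 8, the INT-787 value was unchanged at -0.51 with an adjusted p of 0.031, and the OCA value was -0.50 (adjusted p = 0.080).

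Krt19, the type I keratin of duct cells and hepatic progenitors, ran from 9.66 to 21.9 CPM in vehicle mice (median 13.97 CPM), from 8.98 to 43.1 CPM in OCA mice (median 13.9 CPM) and from 8.48 to 16.02 CPM in INT-787 mice (median 10.6 CPM). The groups overlapped, and 7 of 9 INT-787 mice were below the vehicle median. The log2 fold change was -0.36 with INT-787 (SE 0.22, adjusted p = 0.28) and 0.16 with OCA (SE 0.22, adjusted p = 0.78), and the latter turned to -0.17 without OCA replicate 8 (adjusted p = 0.61).

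Epcam, an adhesion protein of duct and progenitor cells, ran from 19.5 to 32.2 CPM in vehicle mice (median 25.5 CPM), from 12.7 to 58.0 CPM in OCA mice (median 23.3 CPM) and from 16.5 to 24.7 CPM in INT-787 mice (median 18.7 CPM). Every INT-787 mouse was below the vehicle median and 5 of 9 were below every vehicle mouse, while OCA mice lay on either side, 3 below and 2 above every vehicle mouse. Its log2 fold change was -0.31 with INT-787 (SE 0.20, adjusted p = 0.30) and 0.16 with OCA (SE 0.20, adjusted p = 0.74), the latter -0.05 without OCA replicate 8.

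Sox9, the transcription factor that duct cells and periportal progenitor-like hepatocytes share, ran from 17.9 to 27.6 CPM in vehicle mice (median 24.9 CPM), from 17.6 to 55.3 CPM in OCA mice (median 23.01 CPM) and from 13.8 to 29.8 CPM in INT-787 mice (median 21.6 CPM). The log2 fold change was -0.11 with INT-787 (SE 0.18, adjusted p = 0.71) and 0.25 with OCA (SE 0.18, adjusted p = 0.51), the latter 0.05 without OCA replicate 8 (adjusted p = 0.91). The 3 groups overlapped throughout.

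Neither chain of the pair Krt8 and Krt18 was called in any comparison by edgeR with TMM scaling, the expression filter used throughout and all mice. Krt8 ran from 540 to 1034 CPM in vehicle mice (median 695 CPM), from 525 to 856 CPM in OCA mice (median 759 CPM) and from 550 to 719 CPM in INT-787 mice (median 597 CPM). Krt18 ran from 434 to 910 CPM in vehicle mice (median 642 CPM), from 496 to 839 CPM in OCA mice (median 724 CPM) and from 473 to 686 CPM in INT-787 mice (median 615 CPM). Log2 fold changes with INT-787 were -0.27 for Krt8 (SE 0.10, adjusted p = 0.062) and -0.10 for Krt18 (SE 0.11, adjusted p = 0.58). Those with OCA were -0.02 for Krt8 (95% interval -0.23 to 0.19) and 0.08 for Krt18 (95% interval -0.15 to 0.31). The Krt8 value with INT-787 lay close to the threshold and passed it in 4 of the 28 fits that left out 1 mouse (vehicle replicate 1, vehicle replicate 5, OCA replicate 6 or INT-787 replicate 3), with upper-quartile scaling (adjusted p = 0.020), with at least 10 counts required in every mouse (adjusted p = 0.031), with counts thinned to the smallest total (adjusted p = 0.037) and with DESeq2 (adjusted p = 0.041). The ratio of Krt8 to Krt18 per kb of exon was 0.860 ± 0.131 in vehicle mice (SD, n = 10), 0.796 ± 0.0594 in OCA mice (n = 9) and 0.759 ± 0.0884 in INT-787 mice (n = 9), and the lowest ratio, 0.578, was that of vehicle replicate 5 (no test was made of this ratio).

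OCA and INT-787 were compared directly as 1 pair of compounds at the same dose and time. Krt23 was 1.52-fold higher with INT-787 than with OCA (log2 fold change 0.61, 95% interval 0.16 to 1.06, adjusted p = 0.11), a difference not past the threshold. All 9 INT-787 mice were above the OCA median of Krt23, and without OCA replicate 8 the log2 fold change was 0.85 with an adjusted p of 0.0089. The log2 fold changes of the other 8 genes in INT-787 against OCA were all below 0, from -0.18 for Krt18 (95% interval -0.42 to 0.05) to -0.83 for Cldn4 (95% interval -1.44 to -0.21, adjusted p = 0.11). Between them lay Krt8 at -0.25 (95% interval -0.47 to -0.04), Cdh1 at -0.33 (-0.66 to 0.01), Krt7 at -0.33 (-0.81 to 0.14), Sox9 at -0.36 (-0.72 to 0.01), Epcam at -0.47 (-0.87 to -0.06) and Krt19 at -0.52 (-0.98 to -0.06). A p that misses the threshold does not show that the compounds act alike on these genes. Without OCA replicate 8 the values were -0.01 for Krt7, -0.19 for Krt19, -0.25 for Epcam, -0.16 for Sox9 and -0.43 for Cldn4.

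OCA replicate 8 was the highest of all 28 mice for 6 of the 9 genes: Krt7 (21.2 CPM, the next mouse at 14.7 CPM), Krt19 (43.1, next 21.9), Epcam (58.0, next 45.6), Sox9 (55.3, next 39.2), Cldn4 (10.1, next 5.24) and Cdh1 (221, next 193). The next mouse for Epcam, Sox9 and Cldn4 was OCA replicate 6, which was above every vehicle and INT-787 mouse for these genes. For Krt23, OCA replicate 8 ranked 2 of 28, for Krt18 rank 5 and for Krt8 rank 7. The other 8 OCA mice had means of 6.45 ± 1.60 CPM for Krt7 and 12.97 ± 3.44 CPM for Krt19 (SD, n = 8), beside 8.09 ± 5.15 and 16.3 ± 10.6 CPM over all 9. Markers of other cells were high in the same liver: the 9 stellate cell and myofibroblast markers summed to 3439 CPM, against at most 2496 CPM in vehicle mice, and the 8 proliferation genes to 125 CPM, against at most 86.5 CPM in vehicle mice. The summed hepatocyte markers of this liver, at 130947 CPM, lay within the vehicle range of 66768 to 145411 CPM. The part of these cells in the result was not tested.

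**Figure D3:**
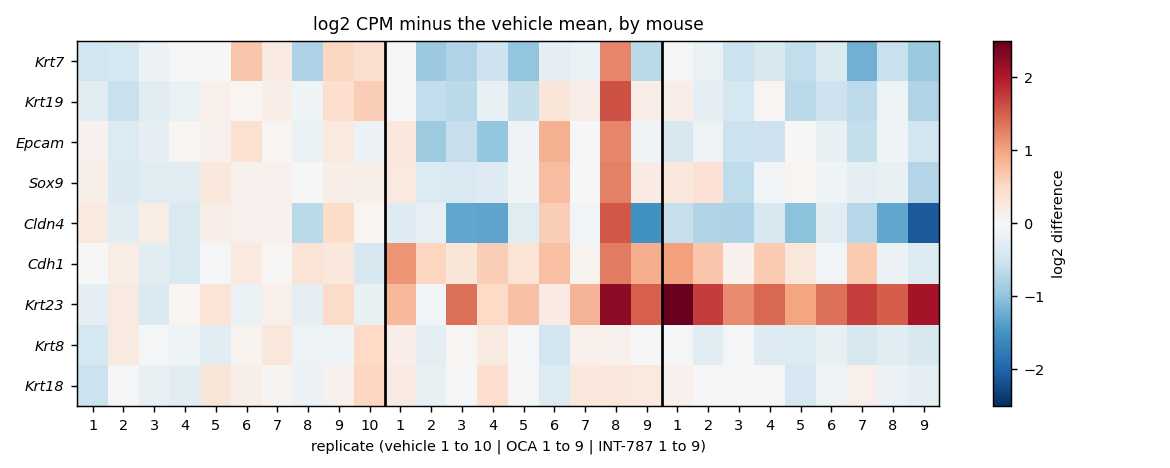
Each gene in each mouse as log2 CPM minus the vehicle mean of that gene. Rows are the 9 genes, columns the 28 mice in 3 blocks (vehicle 1 to 10, OCA 1 to 9, INT-787 1 to 9), red is above and blue below the vehicle mean. Krt23 is red in all INT-787 mice, and OCA replicate 8 is red for every duct gene, while Krt8 and Krt18 are pale throughout.

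Correlations within groups were taken over all 28 mice. After the group means of log2 CPM were removed, 13 of the 36 gene pairs had a correlation with an adjusted permutation p of at most 0.05, all positive, and 10 of 36 by rank. The lowest r among the 13 was 0.456, a value reached by 8.22% of all pairs among the 9355 genes with a mean of at least 5 CPM. Cldn4, with a mean below 5 CPM in each group, is not among those 9355 genes. Krt7, Krt19, Epcam, Sox9 and Cldn4 were called in all of their 10 pairs, with Pearson r from 0.615 to 0.843 and a median of 0.685, and 2.36% of all pairs among the 9355 genes reached 0.615. By rank, 3 of these 10 pairs were not called: Krt19 with Epcam (rho = 0.479, adjusted permutation p = 0.055), Krt19 with Cldn4 (rho = 0.459, adjusted permutation p = 0.061) and Epcam with Cldn4 (rho = 0.375, adjusted permutation p = 0.16). The strongest pair was Krt7 and Krt19 (r = 0.843, Spearman rho = 0.777, n = 28, permutation p = 1e-05, the smallest that the permutations can give, adjusted p = 0.00018), at 0.776 without the 2 mice farthest on the Krt7 axis. Next was Epcam and Sox9 (r = 0.823, rho = 0.741, adjusted permutation p = 0.00018), at 0.724 without the 2 farthest mice. Without OCA replicate 8 the 10 pairs ran from 0.342 to 0.730. Krt8 and Krt18 were correlated with each other (r = 0.698, rho = 0.541, adjusted permutation p = 0.0025, 0.694 without OCA replicate 8). Sox9 was also correlated with Cdh1 (r = 0.617, rho = 0.571, adjusted permutation p = 0.0058), and Krt19 with Krt18 (r = 0.456, rho = 0.495, adjusted permutation p = 0.048, r = 0.4927 without OCA replicate 8). No pair with Krt23 was called.

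**Figure D4:**
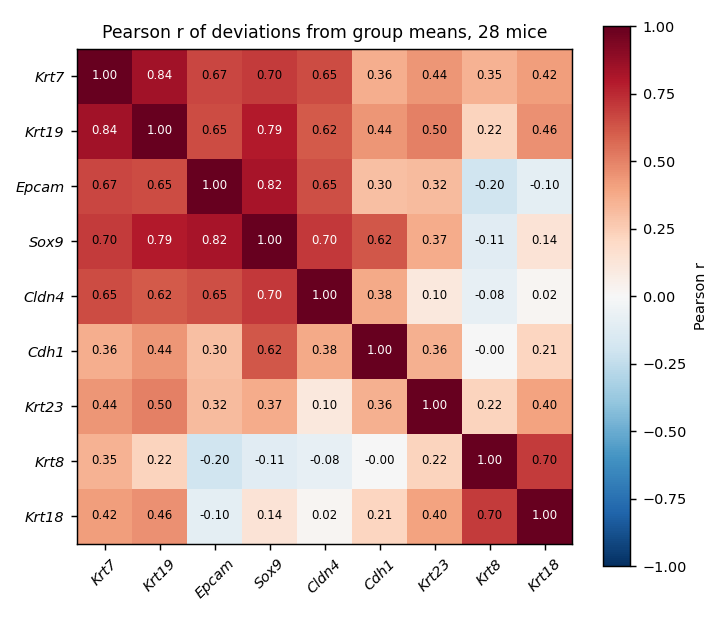
Pearson correlation between genes over 28 mice after removal of group means. Rows and columns are the 9 genes and each cell gives r for log2 CPM, from blue (-1) to red (1). Krt7, Krt19, Epcam, Sox9 and Cldn4 form a block with r of 0.615 to 0.843, Krt8 with Krt18 is at 0.698, and Krt19 with Krt18 at 0.456.

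As a description of which genes followed each of the 9 most closely, the 3 with the highest r were taken from the 9355 genes with a mean of at least 5 CPM, over the same 28 mice and libraries. For Krt7 these were Vill (r = 0.849), Pdzk1ip1 (0.843) and Krt19 (0.843), and for Krt19 they were Serpine2 (0.860), Pdzk1ip1 (0.847) and Krt7. Epcam was followed by Spp1 (0.864), Spint1 (0.855) and Sox9, and Sox9 by Plxdc2 (0.882), Fstl1 (0.856) and Ehf (0.855). Cldn4 was followed by Mxra7 (0.828), Cx3cl1 (0.827) and Mbp (0.826), and Cdh1 by Pak1 (0.861), Col15a1 (0.834) and Htra1 (0.834). Krt18 was followed by Anxa5 (0.844), Ddost (0.839) and Drg2 (0.819), and Krt8 by Anxa6 (0.777), Nmt1 (0.771) and Cpn1 (0.766). Krt23 had the loosest followers, Fyb2 (0.663), Ptgr1 (0.663) and Ywhah (0.636). Without OCA replicate 8 these values were 0.728 for Krt7 with Vill, 0.803 for Epcam with Spp1 and 0.536 for Krt23 with Fyb2.

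Other biliary epithelium genes were called about as often as all genes. Of the 25 tested, 1 was higher and 4 were lower with INT-787, beside 19.6% of all genes, with a median log2 fold change of -0.18, and 2 were higher and 0 lower with OCA, beside 6.6%, with a median of 0.12. Spp1, which encodes osteopontin, a secreted protein of duct cells, macrophages and stellate cells, had 593 ± 98.3 CPM in vehicle (SD, n = 10), 773 ± 319 in OCA (n = 9) and 355 ± 70.0 in INT-787 mice (n = 9). It fell with INT-787 against vehicle (log2 fold change -0.74, adjusted p = 0.0021) and was the 1 gene of the list that differed between the compounds (log2 fold change -1.12 in INT-787 against OCA, adjusted p = 0.00013). Cftr, the apical chloride channel of duct cells, fell with INT-787 (log2 fold change -0.86, adjusted p = 0.013), as did Onecut1, the transcription factor HNF6 of biliary development (log2 fold change -1.57, adjusted p = 0.0071). Tm4sf4, a tetraspanin-like membrane protein, rose with INT-787 (0.61, adjusted p = 0.00016) and OCA (0.62, adjusted p = 0.00031). The other called genes, named after their values were seen, were Cd24a, lower with INT-787, and Slc10a2, the ileal-type bile acid transporter of duct cells, higher with OCA. Without OCA replicate 8 the counts were 1 higher and 5 lower with INT-787, and 1 higher and 0 lower with OCA. Without vehicle replicates 5 and 6 the calls of Cd24a (adjusted p = 0.088) and Slc10a2 (adjusted p = 0.095) were lost. The list as a whole summed to 1146 to 1508 CPM in vehicle mice, 1124 to 2737 CPM in OCA mice and 1039 to 1390 CPM in INT-787 mice, with OCA replicate 8 at the top.

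Among 21 tested Notch, Hippo and TWEAK genes, 0 were higher and 4 lower with INT-787, and 0 higher and 1 lower with OCA, all in 1 direction, beside 10.2% of all genes higher and 9.48% lower with INT-787 and 4.15% and 2.45% with OCA. Jag1, the Notch ligand whose loss causes bile duct paucity, had 12.7 ± 3.84 CPM in vehicle (SD, n = 10) and 8.32 ± 1.73 in INT-787 mice (n = 9) and fell with INT-787 (log2 fold change -0.57, adjusted p = 0.015). Heyl, a Notch target, fell with INT-787 as well (-0.55, adjusted p = 0.023). Tnfsf12, which encodes TWEAK, a mitogen of progenitor cells, fell with INT-787 against vehicle (-0.47, adjusted p = 0.012) and was lower than with OCA (-0.46, adjusted p = 0.037), the latter call lost without OCA replicate 8 (-0.38, adjusted p = 0.11). Wwtr1, which encodes the YAP paralogue TAZ, fell with OCA by 0.24 on the log2 scale (adjusted p = 0.028). This call was lost without OCA replicate 8 (adjusted p = 0.0502) and without vehicle replicates 5 and 6 (adjusted p = 0.064). The other called gene, named after its values were seen, was the TWEAK receptor Tnfrsf12a, lower with INT-787 (-0.53, adjusted p = 0.036, and 0.068 without vehicle replicates 5 and 6). The medians of the list were -0.26 with INT-787 and -0.14 with OCA. Without vehicle replicates 5 and 6, the counts were 3 lower with INT-787 and 0 with OCA, and without OCA replicate 8 they were 6 and 2.

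Junction and keratin linker genes, the partners of Cdh1 and Cldn4, were called about as often as all genes. Of 19 tested, 2 were higher and 1 lower with INT-787 (beside 19.6% of all genes), and 0 higher and 1 lower with OCA (beside 6.6%). None differed between the compounds by edgeR (beside 5.38%). Cldn2, a pore-forming claudin, fell with each compound, from 113 ± 18.9 CPM in vehicle (SD, n = 10) to 63.9 ± 13.2 with INT-787 (n = 9, log2 fold change -0.82, adjusted p = 6.2e-06) and 70.8 ± 11.99 with OCA (n = 9, log2 fold change -0.68, adjusted p = 0.00028). Ctnna1, the alpha-catenin that ties cadherins to actin, rose with INT-787 (0.30, adjusted p = 0.0092), as did Cldn12 (0.29, adjusted p = 0.018). The fall of Cldn4 with INT-787 and the rise of Cdh1 with OCA therefore stood beside a list called about as often as all genes.

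Of the 10 partners of Krt8 and Krt18 in Mallory-Denk bodies, 1 was higher and 5 were lower with INT-787 (beside 19.6% of all genes), with a median log2 fold change of -0.55, and 0 were higher and 2 lower with OCA (beside 6.6%), with a median of -0.25. Hspb1, a small heat shock protein that binds intermediate filaments, had 40.9 ± 10.4 CPM in vehicle (SD, n = 10), 13.7 ± 3.11 in OCA (n = 9) and 21.97 ± 3.57 in INT-787 mice (n = 9). It fell with OCA (-1.58, adjusted p = 1.6e-09) and with INT-787 (-0.90, adjusted p = 1.1e-05), and was higher with INT-787 than with OCA (0.69, adjusted p = 0.0031). Hspa1b, an inducible Hsp70, fell with INT-787 (-1.68, adjusted p = 3.8e-06) and was lower than with OCA (-1.04, adjusted p = 0.0086). Hspa1b has the near-identical copy Hspa1a, and how shared reads were assigned is not given in the sources used here. Tgm2, the transglutaminase that crosslinks keratins, fell with INT-787 (-0.48, adjusted p = 0.0012) and OCA (-0.52, adjusted p = 0.0011). Nqo1, a target of NRF2, rose with INT-787 (0.55, adjusted p = 0.0075). The other called genes, named after their values were seen, were Hspa1a and Cryab, each lower with INT-787, and the Cryab call was lost without vehicle replicates 5 and 6 (adjusted p = 0.079). Sqstm1, which encodes p62 and was named after its values were seen, was not called in any comparison. Its log2 fold change was 0.01 with INT-787 (adjusted p = 0.97, edgeR), -0.32 with OCA (adjusted p = 0.099) and 0.33 in INT-787 against OCA (adjusted p = 0.098). The genes of this list serve many proteins beside keratins.

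**Figure D5:**
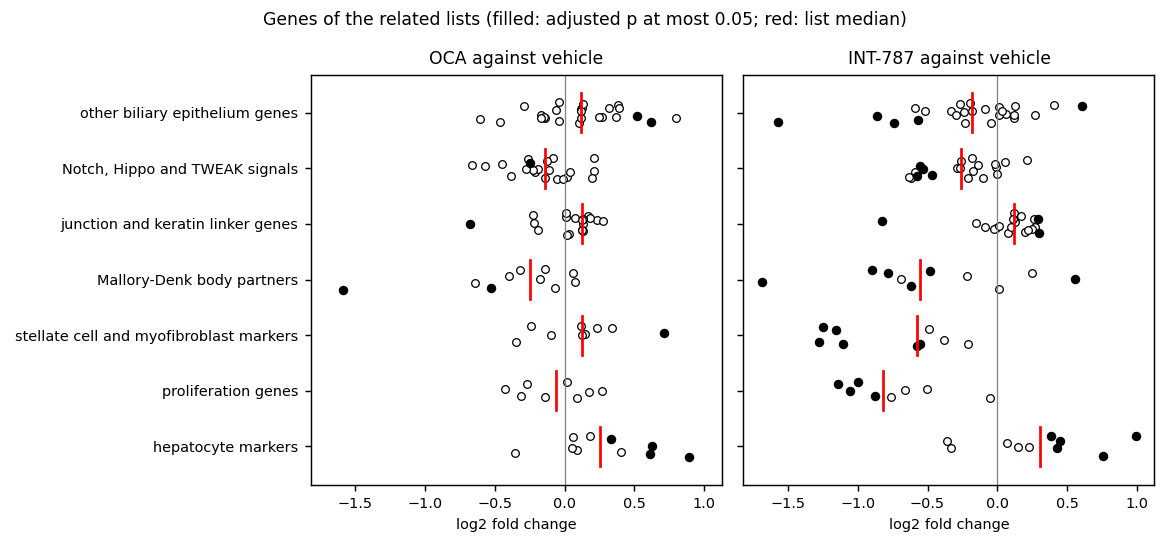
Log2 fold changes of genes in related lists for OCA against vehicle and INT-787 against vehicle. The x axis gives the edgeR log2 fold change, each point is a gene spread vertically within its list for legibility, filled points have an adjusted p of at most 0.05, and red bars are list medians. Stellate cell and proliferation genes lie to the left with INT-787, with medians of -0.58 and -0.82, and around 0 with OCA.

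Markers of other cells in the same livers moved with the groups and are given beside the duct genes. Beside them stand the shares of all genes called: 10.2% higher and 9.48% lower with INT-787, 4.15% higher and 2.45% lower with OCA, and 2.19% higher and 3.19% lower in INT-787 against OCA. With INT-787, 6 of 9 stellate cell and myofibroblast markers fell and 0 rose, led by Col3a1 (-1.28, adjusted p = 5.1e-05), Col1a1 (-1.25, adjusted p = 0.00040), Acta2 (-1.15, adjusted p = 0.00050) and Col1a2 (-1.11, adjusted p = 0.00058). With OCA, 1 rose and 0 fell, and that call, for Lum, was lost without OCA replicate 8 and without vehicle replicates 5 and 6. In INT-787 against OCA, 0 were higher and 5 lower. The summed stellate list ran from 1293 to 2496 CPM in vehicle, 1211 to 3439 CPM in OCA and 485 to 1121 CPM in INT-787 mice, so that all INT-787 mice were below all vehicle and OCA mice. Of 8 proliferation genes, 4 fell with INT-787, among them Aurkb (-1.14, adjusted p = 0.0014), Birc5 (-1.05, adjusted p = 0.0073) and Ccna2 (-0.999, adjusted p = 0.0064), and 0 were called with OCA. Of 7 macrophage markers, Cd68 (-0.69, adjusted p = 0.00085), Gpnmb (-0.69, adjusted p = 0.030) and Trem2 (-0.63, adjusted p = 0.035) fell with INT-787, and 0 were called with OCA. In INT-787 against OCA, the same 3 macrophage markers were lower, as were 2 proliferation genes, Aurkb and Cdk1, the Cdk1 call being lost without OCA replicate 8 (adjusted p = 0.090). Without vehicle replicates 5 and 6 the INT-787 calls against vehicle of Gpnmb (adjusted p = 0.058) and Trem2 (adjusted p = 0.063) were lost and that of Cd5l (adjusted p = 0.049) was gained. Of 10 hepatocyte markers, 5 rose with INT-787 and 4 with OCA, among them Cps1 (0.99, adjusted p = 2.8e-06, and 0.89, adjusted p = 4.0e-05), Tat (0.75, adjusted p = 0.0017, and 0.61, adjusted p = 0.023, the latter 0.064 without vehicle replicates 5 and 6, where Tf was called with OCA instead at 0.62, adjusted p = 0.026) and Alb (0.45, adjusted p = 0.025, and 0.62, adjusted p = 0.0046). Of 5 endothelial markers, 1 (Pecam1, named after its values were seen) was lower with INT-787, a share near that of all genes and a call lost without vehicle replicates 5 and 6, and 0 were called with OCA, and of the lymphocyte and neutrophil, mesothelium, and gut and pancreas markers tested (5, 3 and 2 genes), 0 were called in any comparison by edgeR. The part of these cells in the values of the 9 genes was not tested.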

How the data were processed

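Snap-frozen livers of 28 mice were sequenced from a stranded poly(A) mRNA kit. The authors deposited raw counts per gene in a table of 21935 Ensembl genes. The submitters' processing notes name STAR and GRCm38; the counting program, its strand setting and its treatment of multiply mapped reads are not given in the sources used here. Columns were mapped to mice by the sample numbers in the labels, and 0 columns belonged to other samples. Of the genes, 21858 matched GENCODE on GRCm38, which gave names, coordinates and exon lengths.

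Counts were tested in R 4.3.3 with edgeR 4.0.16 (filterByExpr, TMM factors, quasi-likelihood test, two-sided, 3 groups in 1 fit). Of the genes, 12580 passed the filter, the 9 described here among them. Adjusted p-values are Benjamini-Hochberg values over all genes tested, with calls at 0.05 or below; the study itself used DESeq2 with the same threshold, an alternative here (version 1.42.0), as was limma-voom (limma 3.58.1). Intervals are 95%. Correlations used log2 CPM (prior count 2) less the group mean, with 100000 permutations within groups, adjusted over 36 pairs. The labels number the mice within each group; each is taken as a separate mouse. Every gene of the 9 was named; from each related list at most 4 called genes with the smallest p, or the 2 of highest CPM (not all printed), were named. The genes and lists were chosen with earlier results of these data known. The intervals of log2 fold changes come from the edgeR fit and include the spread between mice. The floor of 3 counts covers counting error only. Promoter sequences are RefSeq's.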

Additional observations from a re-analysis of the deposited data

Results flagged for a closer look

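Within the groups, 27 sets of values (9 genes in 3 groups) were examined for a mouse far from the rest with Dixon's test at the 95% critical value, which chance flags about 1 time in 20. OCA replicate 8 was set apart in 4 of them and no other mouse in any: Krt7 at 21.2 CPM (nearest OCA mouse 8.79 CPM), Krt19 at 43.1 CPM (nearest 17.6 CPM), Krt23 at 19.4 CPM (nearest 11.7 CPM) and Cldn4 at 10.1 CPM (nearest 5.24 CPM). OCA replicate 6 was not flagged, but it was also above every vehicle and INT-787 mouse for Epcam (45.6 CPM), Sox9 (39.2 CPM) and Cldn4 (5.24 CPM). The 4 flagged sets come from 1 liver, OCA replicate 8, so they are not independent of each other. The same liver was highest of all mice for the summed other biliary genes (2737 CPM), stellate cell markers (3439 CPM) and proliferation genes (125 CPM).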

How the results depend on the processing

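The rise of Krt23 with each compound and of Cdh1 with OCA kept its direction and its call in each alternative in which the gene was tested, mice left out in turn included. Apart from those, they had log2 fold changes of 1.58 to 1.68 and 0.85 to 1.07 for Krt23 and of 0.61 to 0.73 for Cdh1. The filter of at least 10 counts in every mouse and thinning to the smallest total removed Krt23 and Cldn4 from the test. In INT-787 against vehicle, 1 of the 9 genes (Krt23) was called with no filter (beside 14.2% of all genes) and with sets of neighbouring sample numbers as a factor (21.5%). The same held without vehicle replicates 5 and 6 (17.3%) and at an adjusted p of 0.01 (10.6%). Cldn4 had an adjusted p of 0.056, 0.066, 0.076 and 0.048 in these fits, in this order. Under the count filter 1 of 7 genes tested was called (Krt8, beside 22.2% of all genes), as under thinning (13.3%). The count was 5 of 9 with DESeq2 on 2 groups (beside 19.6% of all genes) and 4 of 9 with edgeR on 2 groups (beside 20.3%). Both fits added Krt7 and Epcam, and DESeq2 also added Krt8. Leaving out each mouse in turn gave 1 to 3 of the 9, beside 2116 to 2733 of all genes. In OCA against vehicle, 1 gene (Cdh1) of the 7 tested was called under the count filter (beside 8.73% of all genes) and under thinning (5.1%). In INT-787 against OCA, Krt23 was the 1 gene called with limma-voom (0.70, adjusted p = 0.044, beside 5.27% of all genes). It was also the 1 called with sample-number sets (0.81, adjusted p = 0.038, beside 5.2%). Leaving out each mouse gave 0 to 1, the 1 without OCA replicate 8 (beside 3.51%). Values near 0 changed sign in OCA against vehicle: Krt8 to 0.045 with the replicate block and Cldn4 to 0.0096 without vehicle replicates 5 and 6. Over fits that left out 1 mouse, Krt8 ran from -0.063 to 0.031, Cldn4 from -0.40 to 0.11, Krt19 from -0.17 to 0.24 and Epcam from -0.050 to 0.25. The median correlation of the 10 duct pairs was 0.495 without OCA replicate 8, an alternative chosen after seeing the data. Causes were not tested, beyond the genes removed and the thinner counts.

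The correlation between mice with the same replicate number was not over 0.1 in every pair (2, 3 and 6 of 9 pairs for INT-787 with vehicle, OCA with vehicle and INT-787 with OCA), so the numbers were not taken to pair mice. Replicate numbers do not follow the sets of neighbouring sample numbers throughout, so this check does not cover those sets. With the replicate numbers as a block, 2, 2 and 0 of the 9 genes and 2417, 868 and 677 of all genes were called, against 2469, 830 and 677. Over all genes, thinning left 1082, 415 and 238 calls and an adjusted p of 0.01 left 1334, 435 and 247, and without OCA replicate 8 INT-787 against OCA had 443. Depth limits Krt23, Cldn4, Krt7 and Krt19, which vehicle replicate 6 holds with 4, 4, 16 and 16 counts.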
